A study of Sus scrofa with 21 samples.

Results

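The genes described here are 10 pig genes of intestinal iron and calcium handling, and they were taken by their Ensembl gene names and not by any measured value. The 6 iron genes are CYBRD1, SLC11A2, SLC40A1, HEPH, TFRC and MELTF, and the 4 calcium genes are TRPV6, S100G, ATP2B1 and VDR. All 10 were among the 18661 genes in the deposited files, and all 10 passed the filter on low counts, which left 13127 genes for testing.

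Dietary iron enters the enterocyte, the absorptive cell of the gut lining, through a reductase and an ion transporter on the luminal side, and it leaves through an exporter and a ferroxidase on the blood side. Calcium takes a parallel route, with a channel at the lumen, a buffering protein in the cytosol and a pump at the basal membrane, and vitamin D acts through its receptor on this route. In mammals the iron route is known mainly from the duodenum, whereas the tissue measured here was the distal small intestine.

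RNA sequencing was available for 21 Danish Landrace/Yorkshire piglets aged 24 to 25 days. The 10 control piglets received a milk replacer alone, and the 11 starch piglets the same replacer with wheat added as the starch source. Each library came from a separate piglet, and the labels name no genetic change, and no sex, litter or batch. The question put by the design is whether starch in the diet changes expression in this tissue.

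The summed expected count per piglet (estimated reads per transcript, added up) lay between 6719264 and 8610458. Levels are given as CPM, counts scaled to library size with TMM factors, and levels of different genes are compared only as FPKM, which is scaled by length. Over all genes, 0 of 13127 genes were called between the diets by edgeR's quasi-likelihood test at an adjusted p under 0.05, and 174 had an unadjusted p under 0.05. DESeq2, voom with sample quality weights and limma on log2(FPKM + 0.5) also called 0 genes. They had an unadjusted p under 0.05 for 293 of 18630 genes (1.57%), 268 of 13127 (2.04%) and 227 of 13342 (1.7%).

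The tissue label was checked against ileal marker genes, the bile acid genes FABP6, SLC10A2, FGF19, SLC51A and SLC51B. Their summed level was 421 to 5681 CPM in 18 piglets and 18.1 to 58.3 CPM in the other 3, control 5, control 8 and starch 3. The same 3 piglets had 285 to 386 CPM summed over 14 enterocyte markers, against 8838 to 46175 CPM in the other 18. Their macrophage markers summed to 2442 to 3430 CPM against 367 to 1539 CPM, and their general epithelial markers, at 5356 to 8318 CPM, lay within the range of the others. In bulk tissue fewer cells of a type and less RNA per cell cannot be told apart. These 3 libraries are therefore marked throughout, and results that rest on them are given with and without them.

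Several absorption genes were low in these 3 piglets. SLC40A1, S100G and VDR were lower in all 3 than in any of the other 18 piglets. HEPH and ATP2B1 were below the other 18 in 2 of the 3, and CYBRD1 and MELTF in 1. TFRC went the other way in control 5, where it was above every other piglet. SLC11A2 and TRPV6 did not place any of the 3 outside the range of the rest.

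**Figure D1:**
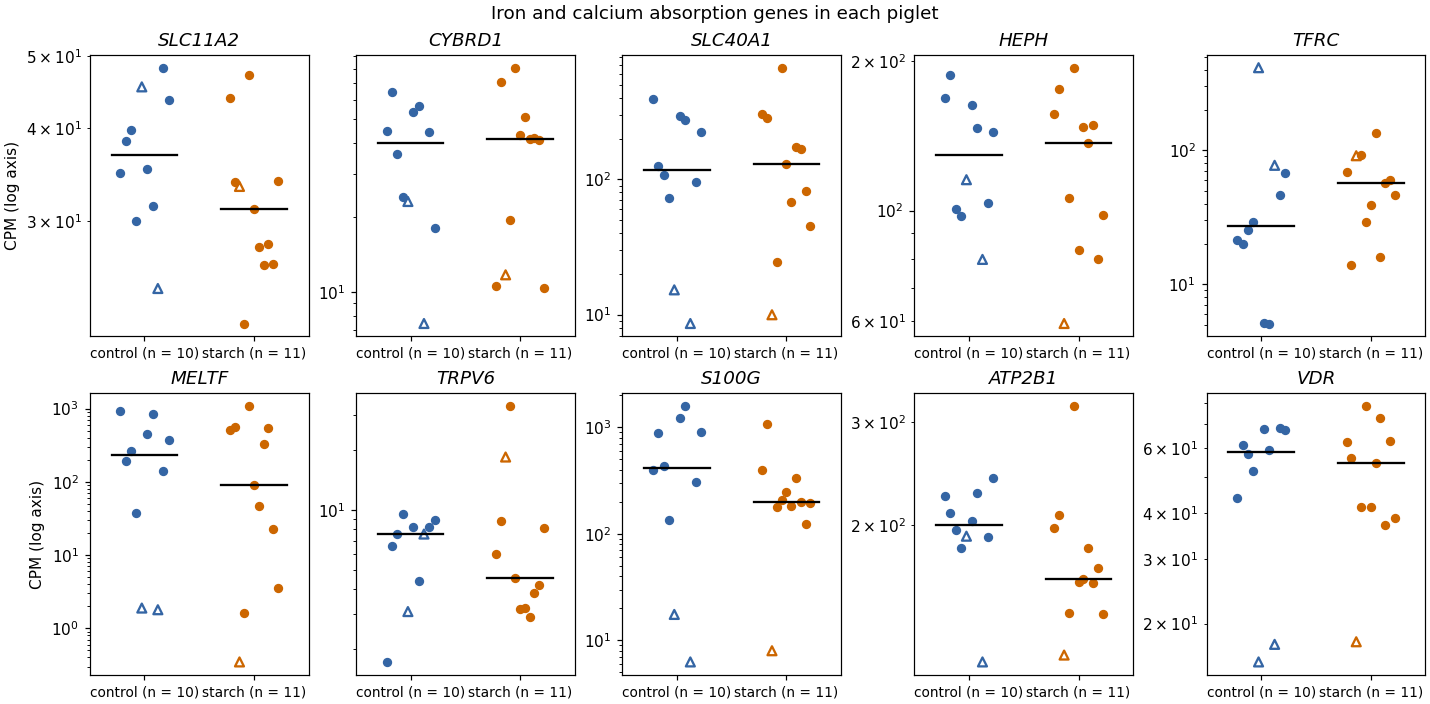
Level of each of the 10 genes in every piglet, in CPM on a log axis, with control piglets (n = 10) in blue and starch piglets (n = 11) in orange; the black line is the median of the diet group. Open triangles are control 5, control 8 and starch 3. The diet groups overlap for every gene, and the triangles lie at the bottom of the SLC40A1, S100G and VDR panels.

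Scaled by length, S100G had the highest level of the 10 genes, with a median of 856 FPKM over the 21 piglets, and it was above the next gene, MELTF, in 21 of 21 piglets. MELTF (median 82.4 FPKM), SLC40A1 (80.7), ATP2B1 (53.0), CYBRD1 (49.2), VDR (45.02) and HEPH (41.1) followed. Within that middle group neighbours in the order were not separated, since MELTF exceeded SLC40A1 in 11 of 21 piglets and ATP2B1 exceeded CYBRD1 in 11 of 21. HEPH exceeded SLC11A2 (median 18.3 FPKM) in 20 of 21 piglets, and SLC11A2 exceeded TFRC (17.3 FPKM) in 11 of 21. TRPV6 was lowest, with a median of 2.93 FPKM, and TFRC was above it in 19 of 21 piglets. The highest and lowest of the 10 genes thus both belong to the calcium route, the cytosolic buffer and the luminal channel.

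CYBRD1 (ENSSSCG00000025049) encodes duodenal cytochrome b, which reduces ferric iron at the luminal membrane. Its level was 7.44 CPM in the lowest, 40.1 CPM in the median and 64.3 CPM in the highest control piglet. The starch values were 10.4, 41.6 and 80.8 CPM. The groups overlapped over most of their range, and the log2 fold change of starch over control was 0.050 (SE 0.38, 95% interval -0.74 to 0.84, unadjusted p = 0.896 by edgeR's quasi-likelihood test).

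SLC11A2 (ENSSSCG00000034039) encodes DMT1, the transporter that takes ferrous iron into the cell. Control piglets had a lowest level of 24.4, a median of 36.8 and a highest of 48.2 CPM, and starch piglets 21.9, 31.2 and 47.1 CPM. This gene varied least between piglets on the CPM scale, 2.20-fold from lowest to highest of all 21. Although 9 of 11 starch piglets lay below the control median, the ranges overlapped almost fully. The log2 fold change was -0.21 (SE 0.14, 95% interval -0.50 to 0.083, unadjusted p = 0.152).

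SLC40A1 (ENSSSCG00000027157) encodes ferroportin, the iron exporter of the enterocyte and also of macrophages. Its control levels were 8.59 (lowest), 116 (median) and 394 CPM (highest), and its starch levels 9.97, 130 and 669 CPM. The spread within each diet was far larger than the difference between them: the highest piglet, starch 5, had 77.9 times the lowest, control 8. The log2 fold change was 0.15 (SE 0.62, 95% interval -1.15 to 1.44, unadjusted p = 0.814), and it was -0.017 without the 3 marked piglets. Those 3 piglets, with the highest macrophage marker sums, had the lowest SLC40A1 levels, at 15.2 (control 5), 8.59 (control 8) and 9.97 CPM (starch 3).

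HEPH (ENSSSCG00000012363) encodes hephaestin, the ferroxidase that works with ferroportin. Control piglets ranged from 79.7 to 187 CPM with a median of 130 CPM, and starch piglets from 59.2 to 194 CPM with a median of 137 CPM. The piglets of both diets were interleaved over the whole range. Starch over control gave a log2 fold change of -0.052 (SE 0.20, 95% interval -0.46 to 0.36, unadjusted p = 0.798).

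TFRC (ENSSSCG00000011848) encodes the transferrin receptor, which takes up transferrin-bound iron and is high in dividing cells. In control piglets it was 5.10 CPM at its lowest, 27.4 CPM at the median and 413 CPM at its highest, and in starch piglets 13.9, 57.3 and 134 CPM. The control maximum belonged to 1 piglet, control 5, and the next control value was 77.2 CPM (control 8). Over all 21 piglets the control mean of 71.1 CPM was above the starch mean of 58.9 CPM, while the control median was below the starch median. Starch over control came to a log2 fold change of -0.27 (SE 0.61, 95% interval -1.53 to 0.99, unadjusted p = 0.657).

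The direction of TFRC rested on that library. Without control 5 the log2 fold change was 0.82. Without the 3 marked piglets it was 1.01 (SE 0.47, 95% interval 0.029 to 1.99), with an unadjusted p of 0.0442 and an adjusted p of 0.9999 by edgeR's quasi-likelihood test. In that comparison 8 of 10 starch piglets lay above the control median of 23.6 CPM, and the groups still overlapped, at 5.10 to 67.5 CPM in control and 13.9 to 134 CPM in starch. TFRC was thus not called between the diets with or without these piglets.

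MELTF (ENSSSCG00000011837) encodes melanotransferrin, an iron-binding relative of transferrin that is anchored to the cell surface. It was the most variable of the 10 genes on the log scale. Control levels were 1.79 (lowest), 230 (median) and 941 CPM (highest), and starch levels 0.348, 91.5 and 1082 CPM. Levels under 4 CPM occurred in 5 piglets, namely the 3 marked ones, starch 4 (1.62 CPM) and starch 11 (3.56 CPM). The lowest value, in starch 3, rested on 3 counts. Every other piglet had at least 22.5 CPM, so the low values formed a separate set that held piglets of both diets. Its log2 fold change was -0.16 (SE 1.01, 95% interval -2.26 to 1.94, unadjusted p = 0.874), an interval that takes in several-fold differences in either direction.

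On the calcium side, VDR (ENSSSCG00000020864) encodes the vitamin D receptor, a nuclear receptor that switches on calcium transport genes. Its control levels were 15.7 (lowest), 58.7 (median) and 68.1 CPM (highest), and its starch levels 17.9, 54.8 and 78.2 CPM. The 3 marked piglets lay between 15.7 and 17.9 CPM, and the other 18 between 37.2 and 78.2 CPM, a 2.10-fold range. The log2 fold change was 0.0050 (SE 0.26, 95% interval -0.53 to 0.54, unadjusted p = 0.985) over 21 piglets and -0.12 (95% interval -0.44 to 0.19) over 18.

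TRPV6 (ENSSSCG00000016469) encodes the luminal calcium channel. It was scarce, with 13 to 246 counts per piglet, and counting error is therefore a larger part of its spread than for the abundant genes. Control levels were 1.72 (lowest), 7.55 (median) and 9.51 CPM (highest), and starch levels 2.90, 4.57 and 33.2 CPM. The starch group held both the 2 highest piglets, starch 4 at 33.2 CPM and starch 3 at 18.4 CPM, and a lower median than the control group. For the diets its log2 fold change was 0.42 (SE 0.42, 95% interval -0.45 to 1.29, unadjusted p = 0.332), and it was -0.052 without starch 4.

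S100G (ENSSSCG00000012147) encodes calbindin-D9k, the small protein that carries calcium across the enterocyte and is a textbook target of the vitamin D receptor. Control levels were 6.28 (lowest), 415 (median) and 1578 CPM (highest), and starch levels 8.00, 200 and 1070 CPM. Of the 11 starch piglets 10 lay below the control median, and the 1 above it was starch 2 at 1070 CPM. The ranges overlapped over almost their whole length, and starch 3, control 5 and control 8 lay between 6.28 and 17.5 CPM. The log2 fold change was -1.04 (SE 0.68, 95% interval -2.46 to 0.38), with an unadjusted p of 0.143 and an adjusted p of 0.9998 by edgeR's quasi-likelihood test. On log2(FPKM + 0.5) with limma it was -0.49 (unadjusted p = 0.573).

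Without the 3 marked piglets the S100G difference was slightly larger and its interval narrower. Control levels were then 135 (lowest), 662 (median) and 1578 CPM (highest), and starch levels 123, 204 and 1070 CPM, with 9 of 10 starch piglets below the control median. The log2 fold change between the diets was then -1.22 (SE 0.44, 95% interval -2.14 to -0.31, unadjusted p = 0.0115, adjusted p = 0.9999 by edgeR). In this comparison 2.91% of 13139 genes had an unadjusted p under 0.05 and 0 were called, and S100G and TFRC were the 2 of the 10 genes below that unadjusted level.

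Marker levels of other cell types were set beside S100G, with no test between the diets. The median sum of smooth muscle markers was 10666 CPM for control piglets and 15526 CPM for starch piglets (ranges 8686 to 38216 and 6342 to 24332 CPM), and that of enterocyte markers 20894 and 19980 CPM (ranges 317 to 46175 and 285 to 40323 CPM). For both lists the ranges of the diets overlapped. With the enterocyte score as a second term the S100G log2 fold change was -0.71 (unadjusted p = 0.0227), and with the smooth muscle score it was 0.20 (unadjusted p = 0.775). The adjusted p was 0.9996 or higher for all 10 genes in every one of these fits. The sign of the S100G difference thus turned when the smooth muscle score entered the fit over all 21 piglets. The 3 marked piglets had the highest smooth muscle scores (0.64 to 1.04) and the lowest S100G levels. S100G had an r of -0.712 with that score over 21 piglets and -0.39 over 18. Whether the sign also turns without the marked piglets was not tested.

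ATP2B1 (ENSSSCG00000027898) encodes PMCA1, the plasma membrane pump that extrudes calcium at the basal side. Its control levels were 117 (lowest), 200 (median) and 241 CPM (highest), and its starch levels 120, 162 and 320 CPM. Although 9 of 11 starch piglets lay below the control median, the highest piglet of all, starch 5, belonged to that group. Its difference between the diets was a log2 fold change of -0.16 (SE 0.15, 95% interval -0.47 to 0.16, unadjusted p = 0.317).

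Taken over the 10 genes, 4 were higher and 6 lower in starch, and 0 were called by edgeR's quasi-likelihood test at an adjusted p under 0.05, where 0% of all 13127 tested genes were called. Likewise 0 of the 10 had an unadjusted p under 0.05, against 1.33% of all tested genes. The median log2 fold change was -0.10 over the 10 genes and 0.0039 over all tested genes. The 95% intervals were narrowest for SLC11A2 and ATP2B1 and widest for MELTF, so small changes of SLC11A2 and several-fold changes of MELTF lie within them.

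The other genes of both routes were counted in the same fit. Of 36 further iron genes listed, 32 were in the files and 20 were tested, of which 7 were higher and 13 lower in starch, with 0 called and 0 at an unadjusted p under 0.05 (median log2 fold change -0.028). The most abundant by mean level were FTL, the ferritin light chain, at 2064 FPKM, PCBP2, an iron chaperone, at 352 FPKM, NCOA4, the ferritin autophagy receptor, at 86.9 FPKM, and SLC39A14, a metal importer, at 80.2 FPKM. The smallest unadjusted p-values belonged to PCBP2 (log2 fold change 0.12, p = 0.214), the haem oxygenase HMOX1 (-0.33, p = 0.26), the siderophore-binding LCN2 (0.52, p = 0.42) and the mitochondrial iron importer SLC25A28 (0.14, p = 0.435). Hepcidin (HAMP), transferrin (TF) and ceruloplasmin (CP), which are made mainly in the liver, did not pass the filter, with at most 2, 16 and 15 counts in any piglet.

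Of 28 further calcium genes listed, 26 were in the files and 16 were tested, of which 7 were higher and 9 lower, with 0 called (median log2 fold change -0.056). The most abundant were S100A10 (814 FPKM), PDIA3 (693 FPKM), ANXA2 (692 FPKM) and the claudin CLDN15 (187 FPKM), which forms paracellular cation pores. STC2, a secreted regulator of calcium and phosphate, had the smallest unadjusted p. The control piglets had 3.56 ± 2.01 CPM (SD, n = 10) and the starch piglets 2.31 ± 0.783 CPM (SD, n = 11), and 10 of 11 starch piglets lay below the control median. Its log2 fold change was -0.63 (SE 0.27, unadjusted p = 0.0285, adjusted p = 0.9998 by edgeR), so it was not called. PTH1R (-0.17, p = 0.314), CACNA1D (-0.20, p = 0.456) and CLDN2 (-0.16, p = 0.503) followed. Calbindin-D28k (CALB1) and the vitamin D catabolic enzyme CYP24A1 stayed below the filter, with at most 6 and 4 counts.

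**Figure D2:**
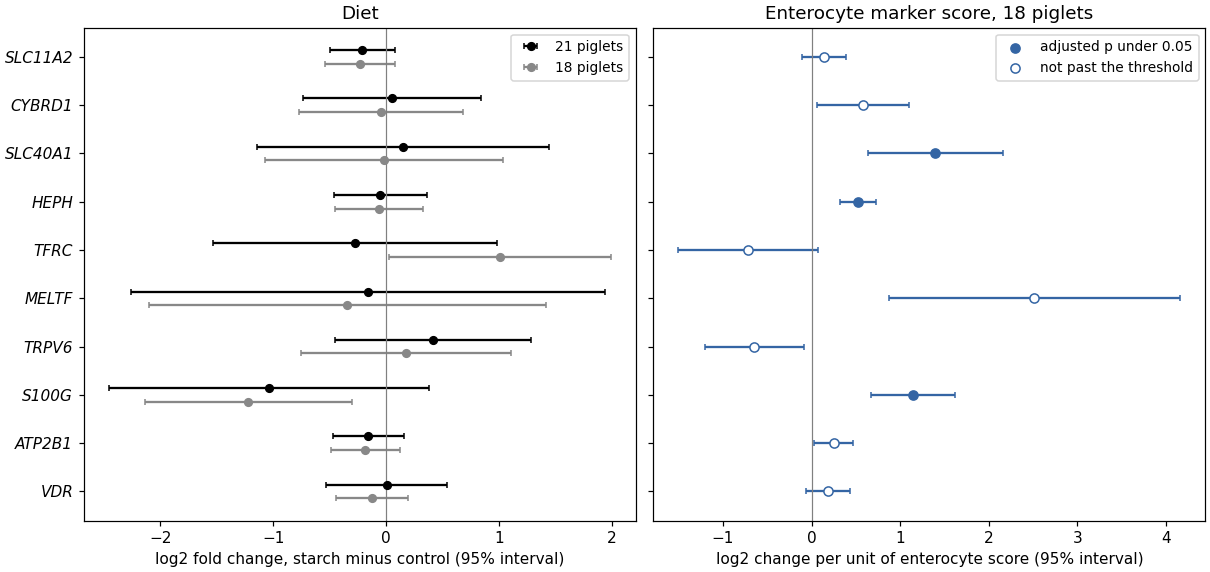
Left, log2 fold change of starch over control for each gene over 21 piglets (black) and over 18 piglets (grey); right, log2 change per unit of the enterocyte marker score over 18 piglets, filled where the adjusted p was under 0.05. Bars are 95% intervals; on the left most cross 0, the exceptions being TFRC and S100G over 18 piglets, and on the right the filled points are SLC40A1, HEPH and S100G.

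The levels were next compared with the level of enterocyte markers in each sample. The enterocyte score is the mean over 14 marker genes, none of them among the 10, of log2 CPM centred on each gene. Its slope was fitted over 18 piglets, without the 3 marked ones, with diet as a second term. HEPH, S100G and SLC40A1 were called as rising with the score, and no gene of the 10 was called as falling. That is 3 of 10 called, all rising, where 7.62% of 13139 genes were called, 5.14% rising and 2.47% falling. The median slope was 0.38 over the 10 genes and -0.023 over all genes.

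HEPH followed the score most closely, with a slope of 0.52 log2 units per unit of score (95% interval 0.31 to 0.72, adjusted p = 0.00399 by edgeR's quasi-likelihood test) and a Pearson r of 0.817 over 18 piglets. Its r was 0.88 without the 2 piglets farthest on the score, starch 4 and control 6. With a score of general epithelial markers in place of the enterocyte markers the HEPH slope was -0.13 (adjusted p = 0.791 by edgeR), and the call was lost. S100G had a slope of 1.14 (95% interval 0.67 to 1.61, adjusted p = 0.00486 by edgeR), with r = 0.755, or 0.726 without those 2 piglets. Its call was lost without starch 2 (slope 0.91, adjusted p = 0.0555 by edgeR) and with the epithelial score (slope 0.47, adjusted p = 0.7435).

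SLC40A1 had a steeper slope of 1.40 (95% interval 0.63 to 2.16, adjusted p = 0.0261 by edgeR), with r = 0.683, or 0.53 without the 2 farthest piglets. This call was lost without control 9 (adjusted p = 0.0507), without starch 4 (0.0747) and without starch 10 (0.0536), and after adding the smooth muscle score to the fit (slope 1.20, adjusted p = 0.0762 by edgeR). Along the epithelial score SLC40A1 was called in the other direction, with a slope of -2.87 (adjusted p = 0.0231 by edgeR). MELTF had the steepest slope, 2.51 (95% interval 0.87 to 4.16), but missed the threshold at an adjusted p of 0.0558 by edgeR. It passed without control 2, starch 7, starch 9 or starch 11, with adjusted p-values of 0.0358 to 0.0448.

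The remaining 6 genes were not called along the score. CYBRD1 had a slope of 0.58 (adjusted p = 0.161 by edgeR), ATP2B1 of 0.25 (0.163), VDR of 0.18 (0.367) and SLC11A2 of 0.14 (0.526). The slopes of TFRC (-0.72, adjusted p = 0.256 by edgeR) and TRPV6 (-0.65, 0.142) were negative. TFRC passed the threshold without starch 7 (slope -1.03, adjusted p = 0.0486 by edgeR), and the TRPV6 slope was 0.067 without starch 4. Along the epithelial score TRPV6 rose, with a slope of 2.24 (adjusted p = 0.00487 by edgeR). It and SLC40A1 were the 2 of the 10 genes called there, where 2585 of 13139 genes were called. Starch 4 had the highest TRPV6 level (33.2 CPM) and the highest epithelial score (0.67) of all piglets, and this slope was not fitted without it. Along the enterocyte score SLC11A2 had the slope nearest 0 of the 10 genes, and over 21 piglets also the smallest ratio of highest to lowest level.

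The other pathway genes were read the same way. Of the 20 other iron genes 5 were called as rising along the score and 0 as falling. The 5 were HMOX1 (slope 0.80, adjusted p = 0.0107 by edgeR), the folate and haem carrier SLC46A1 (1.21, 0.0124), HMOX2 (0.47, 0.0133), FTL (0.76, 0.0147) and the metal importer SLC39A8 (0.91, 0.045). Of the 16 other calcium genes 1 was called as rising, CLDN15 (slope 0.47, adjusted p = 0.0281 by edgeR), and 0 as falling. Over all genes 5.14% were called as rising and 2.47% as falling, so the calcium count was near the share over all genes.

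Among the 10 genes, SLC40A1 and MELTF had the most similar levels across piglets. Their log2 CPM had a Pearson r of 0.927 and a Spearman rho of 0.93 over 18 piglets, with r = 0.914 in control and 0.946 in starch piglets. The r was 0.88 after the enterocyte score and diet were taken out of both, and 0.957 over 21 piglets. ATP2B1 followed both, with r = 0.832 (rho 0.752) with SLC40A1 and 0.762 (rho 0.742) with MELTF. These points share the libraries and their cell makeup, so the coefficients describe these piglets.

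S100G followed SLC40A1 less closely, with r = 0.519 (rho 0.641) over 18 piglets and 0.035 after the score and diet were taken out. The r was 0.689 without the 2 piglets farthest on SLC40A1, and 0.834 over 21 piglets. With ATP2B1, S100G had an r of 0.483 and a rho of 0.688. Starch 5 had the highest SLC40A1 (669 CPM), MELTF (1082 CPM) and ATP2B1 (320 CPM) of all piglets but only 209 CPM of S100G. TFRC and S100G went in opposite directions, with r = -0.694 and rho = -0.637, or r = -0.46 without the 2 piglets farthest on TFRC. After the score and diet were taken out of both, their r was -0.334. The lowest TFRC levels, 5.10 and 5.13 CPM in control 7 and control 6, came with the highest S100G levels, 1578 and 1214 CPM. TRPV6 and S100G, the channel and the buffer of the same route, had an r of 0.035 and a rho of 0.080. VDR and S100G had an r of 0.354 over 18 piglets and 0.846 over 21, where the 3 marked piglets were low in both.

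**Figure D3:**
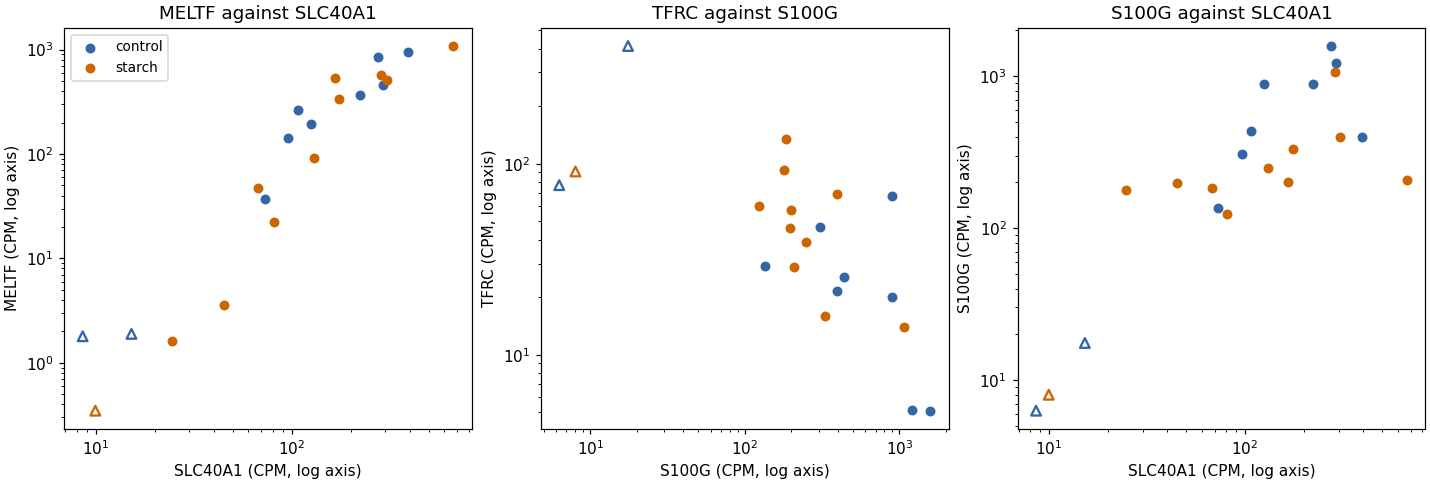
Level of MELTF against SLC40A1, of TFRC against S100G and of S100G against SLC40A1 in every piglet, in CPM on log axes, with control in blue, starch in orange and control 5, control 8 and starch 3 as open triangles. MELTF and SLC40A1 lie along 1 line (r = 0.927 over the 18 filled points), TFRC declines with S100G (r = -0.694), and S100G against SLC40A1 is looser (r = 0.519).

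Levels of the 10 genes were also set beside scores of other cell types, over the same 18 piglets. With the cell cycle score, r was -0.841 for ATP2B1, -0.793 for SLC40A1 and -0.771 for MELTF, and 0.654 for TFRC. With the macrophage score, r was -0.813 for SLC40A1 and -0.789 for MELTF. TRPV6 had its largest r, 0.699, with the general epithelial score, or 0.543 without the 2 piglets farthest on that score. With the enterocyte score its r was -0.29, or 0.011 without the 2 piglets farthest on that one. The r of TFRC with the erythroid score (3 tested markers) was 0.028. Of the 5 red cell markers in the files, SLC4A1 and AHSP were under 1 CPM in every piglet. All 5 together summed to 51.8 to 221 CPM in control piglets and 77.6 to 342 CPM in starch piglets. A proximal small intestine score had 2 tested markers, GATA4 and SLC46A1, and SLC46A1 itself rose along the enterocyte score. With it, r was 0.742 for MELTF, 0.731 for SLC40A1, 0.69 for ATP2B1 and 0.65 for HEPH. It was 0.635 for both SLC11A2 and S100G, 0.483 for CYBRD1 and 0.332 for VDR, and negative for TFRC and TRPV6. With the distal score, r was -0.383 for SLC40A1, -0.382 for ATP2B1, -0.365 for HEPH and -0.307 for MELTF. Apart from the enterocyte, general epithelial and smooth muscle terms above, the part of these scores in the levels of the 10 genes was not tested.

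**Figure D4:**
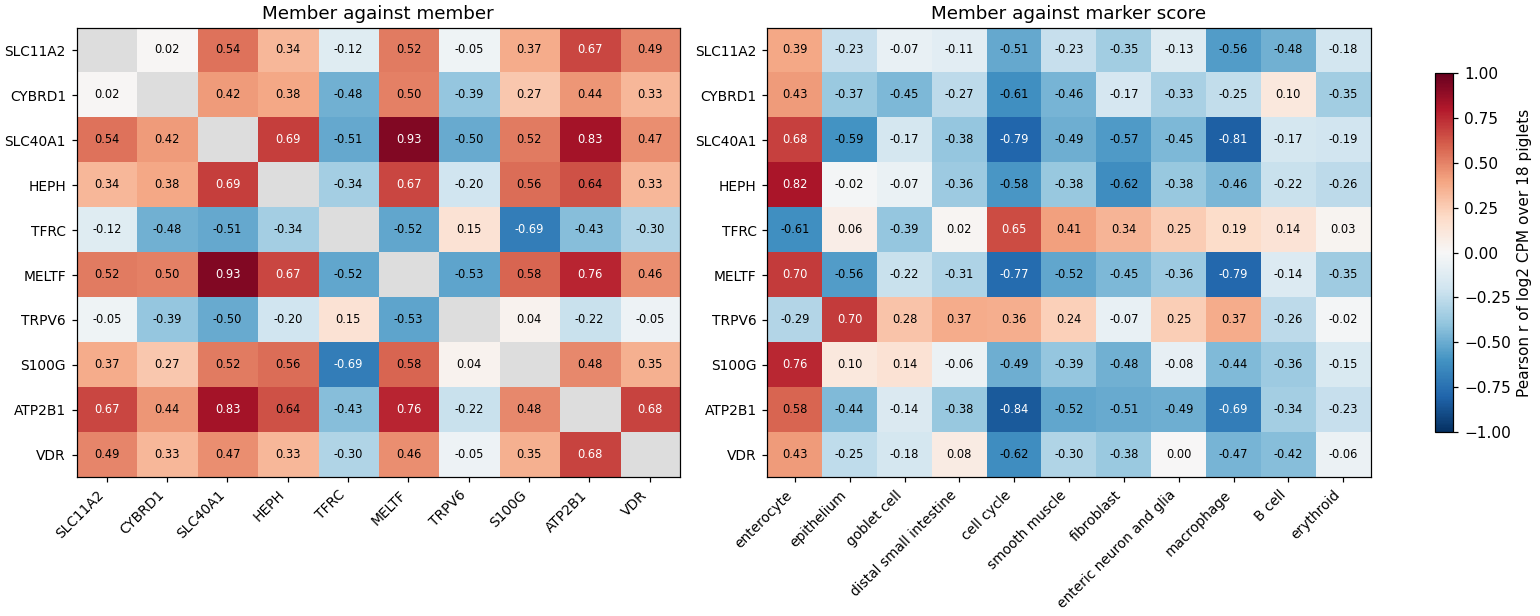
Pearson r of log2 CPM over 18 piglets between each pair of the 10 genes (left) and between each gene and 11 marker scores (right), on a colour scale from -1 (blue) to 1 (red). SLC40A1, MELTF, HEPH and ATP2B1 are red with each other and with the enterocyte score, while TFRC and TRPV6 are blue with SLC40A1, MELTF and the enterocyte score.

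The genes most like each of the 10 were ranked by r among 11283 tested genes with a symbol, over 18 piglets. For SLC40A1 they included DAB2 (r = 0.978), an endocytic adaptor, and SLC38A7 (0.957), a lysosomal amino acid transporter. For MELTF they were SLC9A3 (0.973), the luminal sodium-proton exchanger, MAMDC4 (0.972), known from endocytosis in the neonatal rodent gut, and ETNK2 (0.964). MELTF held place 36 in the SLC40A1 order, and SLC40A1 place 22 in the MELTF order.

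For S100G the nearest genes included the mitochondrial citrate carrier SLC25A1 (0.918) and the lipid transporter MFSD2A (0.883). For HEPH they were the cholesterol transporter NPC1L1 (0.911), the brush border cadherin CDHR2 (0.903) and MCOLN2 (0.896), and for ATP2B1 TSHZ1 (0.925), GLP2R (0.9) and MPZL2 (0.894). TFRC was nearest to ECT2 (0.871), a cytokinesis factor, SGPP2 (0.859) and GALNT3 (0.835), and TRPV6 to ARHGEF5 (0.842), PLAU (0.801) and SERPINE2 (0.798). The likeness was lowest for CYBRD1 (SYAP1 0.754, MVB12B 0.749 and PRSS12 0.71), SLC11A2 (SLC25A15 0.769, SEPSECS 0.763 and SUGCT 0.756) and VDR (ZNF135 0.778, INO80D 0.752 and DSCAML1 0.746). None of the 10 genes was among the 3 nearest of another.

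The 10 genes comprised 48 transcripts in the files, of which 30 passed the filter when transcripts were tested in place of gene sums. MELTF had 1 transcript, and 1 transcript carried 98.4% ± 3.52 (SD, n = 21) of the S100G estimate. Some transcripts had identical estimates in every piglet, among them both CYBRD1 transcripts of 858 coding bases at 50% each, so such copies cannot be told apart in these files. Of 22522 transcripts tested 0 were called and 246 (1.09%) had an unadjusted p under 0.05.

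Among those 246 was 1 transcript of the 10 genes, the TFRC transcript ENSSSCT00000032710 with a coding length of 2385 bases, which was singled out after its values were seen. Its share of the TFRC estimate was 0% (lowest), 0.354% (median) and 27.3% (highest) in control piglets, and 0%, 27.7% and 42.2% in starch piglets. It was at 0 in 5 control piglets and 1 starch piglet, and the groups overlapped. This transcript had a log2 fold change of 2.05 (SE 0.98, unadjusted p = 0.0492, adjusted p = 1 by edgeR's quasi-likelihood test). The other tested TFRC transcripts were sets of copies with identical estimates, with log2 fold changes of -0.70 or -0.55. This fit included control 5, without which the log2 fold change of the TFRC gene sum was 0.82. The transcripts were not tested without that piglet.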

How the data were processed

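Total RNA of distal small intestine was sequenced for 10 control and 11 starch piglets. Per the file headers the authors deposited 2 values for each transcript, an expected count, which is an estimate with decimals and was not normalized, and an FPKM value, which the authors had scaled to length and sequencing depth. HISAT and DESeq2 are named in the submitters' processing notes without a version or role. For the counting program, genome build and strand setting: not given in the sources used here. Lengths were coding lengths (99.96 to 99.97% multiples of 3). Gene names came from an Ensembl table that matched 14276 of 18661 genes (76.5%), and no coordinates or sequences are given.

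Expected counts were summed per gene and rounded. The main test was edgeR 4.0.16 (R 4.3.3), a quasi-likelihood F test with TMM scaling, filterByExpr (minimum count 10, minimum total 15), diet as the only term and Benjamini-Hochberg adjustment over all tested genes, threshold 0.05. Intervals are 95%. Scores and correlations used log2 CPM (prior count 2). The slope on the enterocyte score used 18 piglets and diet as a second term. DESeq2 1.42.0, limma 3.58.1 with voom and sample quality weights, and limma on log2(FPKM + a pseudocount) were alternatives, with FPKM summed per gene and at least 1 in 10 piglets. Fold changes on that scale understate the change of low genes. The tests were checked on simulated counts. Totals of 6719264 to 8610458 expected counts make counting error small for abundant genes. It is larger for TRPV6 (13 to 246 counts) and for the lowest values of MELTF (3 counts), TFRC (30), S100G (49), CYBRD1 (58) and SLC40A1 (67).

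The 10 genes, the further gene lists and the choice of 18 piglets were made with earlier results of these data known. Of each further list, the 4 genes with the highest mean FPKM and the 4 with the smallest unadjusted p are named. For each of the 10 genes the 3 most similar genes were ranked, and genes named along the enterocyte score outside that rule are all those called. Some of these similar genes are not reported here.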

Additional observations from a re-analysis of the deposited data

Results flagged for a closer look

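In the control group 1 piglet stood far from the other 9 for each of 2 genes. TFRC in control 5 was 413 CPM, and the next highest control value was 77.2 CPM, a gap that makes up 0.823 of the group's whole range. ATP2B1 in control 8 was 117 CPM, and the next lowest control value was 183 CPM, a gap of 0.532 of the range. Both piglets are among the 3 with low enterocyte and ileal marker levels, and the part of that in these values was not tested. The 10 genes were looked at in the control group of 10 piglets (the starch group of 11 was not). For normally distributed values chance marks about 1 in 20 groups, and whether these CPM values are so distributed was not tested.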

How the results depend on the processing

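Between the diets 0 genes and 0 of the 10 genes were called in the 14 other settings and in the 21 fits that left out 1 piglet each. Log2 fold changes changed sign as follows: with voom and sample quality weights SLC40A1 -0.17, CYBRD1 -0.048, TFRC 0.81, TRPV6 -0.13 and VDR -0.060; with log2(FPKM + 0.5) SLC40A1 -0.00075, CYBRD1 -0.094 and TFRC 0.52; with + 0.1 CYBRD1 -0.096 and TFRC 0.56; with + 1 SLC40A1 -0.0029, CYBRD1 -0.091 and TFRC 0.48. They also changed sign with the enterocyte score as a term for TFRC (0.64), with the smooth muscle score for HEPH (0.032), TFRC (0.12), MELTF (1.25) and S100G (0.20), and without control 5, control 8 and starch 3 for SLC40A1 (-0.017), CYBRD1 (-0.044), TFRC (1.01) and VDR (-0.12). With the replicate number as a block (starch 11 left out) 0 genes were called, SLC40A1 was -0.17, TFRC 0.69 and S100G -0.67. Deviations of same-numbered piglets from their diet mean had an r over 0.1 in 4 of 10 pairs (r -0.337 to 0.485). Such a count cannot settle whether the numbers stand for a pairing, which the labels do not name. Leaving out 1 piglet gave SLC11A2 -0.27 to -0.16, SLC40A1 -0.31 to 0.41, CYBRD1 -0.11 to 0.17, HEPH -0.13 to 0.021, TFRC -0.47 to 0.82, MELTF -0.62 to 0.19, TRPV6 -0.052 to 0.51, S100G -1.50 to -0.74, ATP2B1 -0.27 to -0.11 and VDR -0.099 to 0.099. SLC11A2 with weighted voom had an unadjusted p of 0.0355 (-0.28).

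Along the enterocyte score 5153 of 13127 genes and 8 of the 10 were called over all 21 piglets. With a smooth muscle term 1596 of 13139 genes and 2 of the 10 were called. Leaving out 1 of the 18 piglets, chosen after seeing the data as was the transcript fit, gave 553 of 13175 genes (without control 9) to 1138 genes (without starch 11) and 2 to 5 of the 10. The TRPV6 slope then lay between -0.94 (without starch 2) and 0.067 (without starch 4). With the general epithelial list in place of the enterocyte list 2585 of 13139 genes and 2 of the 10 were called. Slopes turned for SLC11A2 (-0.32), SLC40A1 (-2.87, called), CYBRD1 (-0.95), HEPH (-0.13), TFRC (0.50), MELTF (-5.11), TRPV6 (2.24, called), ATP2B1 (-0.54) and VDR (-0.36). HEPH and S100G (0.47) were not called. The cause of these changes was not tested.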
